A study of Mus musculus with 22 samples.

Results

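Fc receptors are proteins that bind the constant part of antibodies, and 7 genes of the mouse family were examined here in 3 subsets of conventional dendritic cells (cDCs). The genes were chosen by name, and all 7 were present among the 34047 genes of the deposited RNA-seq table. Fcgr1, Fcgr3 and Fcgr4 encode activating receptors for IgG, Fcer1g encodes the Fc receptor common gamma chain that these receptors need to signal, and Fcgr2b encodes the inhibitory IgG receptor. Fcgrt encodes the heavy chain of the neonatal Fc receptor, and Fcer2a encodes CD23, the low-affinity IgE receptor. In the ATAC-seq data, which measure how open chromatin is, 42 of 177956 windows lay in 19 peaks whose closest gene within 50000 bases was one of the 7.

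The study sorted cDC1s and, by a T-bet reporter, 2 kinds of cDC2 (T-bet- and T-bet+) to ask how the cDC2 subsets divided by the transcription factor T-bet differ. All groups came from the Tbx21RFP-cre strain, with male and female mice of 6 to 10 weeks, and RFP marked cells that express Tbx21, the T-bet gene. One sentence of the study's RNA-seq methods assigns RFP+ and RFP- the other way round, and the sample labels, which call the RFP+ cells T-bet+, were followed here. All cells passed one gate (CD11c+ MHCII+, negative for CD64, Ly6C and markers of lymphocytes), after which cDC1s were XCR1+ CD11b-, T-bet+ cDC2s were CD11b+ XCR1- RFP+ and T-bet- cDC2s were CD11b+ XCR1- RFP-. RNA-seq gave 3 spleen libraries of each subset and, from the mesenteric lymph node (MLN), 3 cDC1 libraries and 2 for either kind of cDC2, each from 2 pooled mice. ATAC-seq gave 2 spleen libraries of each subset. The study describes its mice as naive. No wild-type group was part of the comparison, since every group carried the reporter allele. CD64 is the protein made from Fcgr1, so the gate removed cells with CD64 on their surface from every group, and the Fcgr1 values are those of cells that passed it.

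As background, an activating Fc receptor that is cross-linked by an immune complex signals through the ITAM motifs of the common gamma chain and the kinase SYK, whereas FcγRIIB, the product of Fcgr2b, carries an ITIM motif that recruits the phosphatase SHIP1 and dampens the response. In dendritic cells the balance between the activating and the inhibitory receptors is known to set how antibody-bound antigen is taken up and presented. The neonatal Fc receptor works inside the cell, where it binds IgG at acidic pH and diverts it from degradation.

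In the GRCm38 annotation (GENCODE), 4 of the 7 genes sit together on chromosome 1: Fcgr2b at chr1:170958617-170976547 on the minus strand, Fcgr4 at chr1:171018920-171029761 on the plus strand, Fcgr3 at chr1:171051174-171064935 on the minus strand and Fcer1g at chr1:171229572-171234365 on the minus strand. Fcgr1 lies at chr3:96282909-96293969, Fcgrt at chr7:45092990-45103851 and Fcer2a at chr8:3681737-3694175, all on the minus strand. Fcgr2b and Fcgr3 are similar in sequence. Of the 50-base stretches of their exons, 6.95% in Fcgr2b and 9.58% in Fcgr3 occur in another gene as well. Those of Fcgr3, 166 stretches, all occur in Fcgr2b, whereas 166 of the 395 in Fcgr2b occur in Fcgr3. Reads no longer than these stretches could not be assigned to one gene there. Fcgr2b overlaps the antisense gene Gm38204 and Fcgrt overlaps Gm45669. The sources used here do not say whether counting used the strand, so reads from either strand there cannot be told apart.

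The promoters of the 4 IgG receptor genes are shown because these genes differed most between the cDC2 subsets or between tissues. They are RefSeq entries (GRCm38.p6) that run from 250 bases before to 50 bases after a gene's start, written 5′ to 3′ along the gene's own strand, and all 7 genes had such an entry. Capitals mark matches on either strand to PU.1 (AGAGGAAG), C/EBP (TTGCNNAA), T-box (AGGTGTNA), Runx (TGTGGTT) or RORE (TAGGTCA). The Fcgr1 promoter (chr3:96293920-96294219, minus strand) held 1 PU.1 match. The Fcgr3 promoter (chr1:171059354-171059653, minus strand) held 1 C/EBP match and 1 PU.1 match. It starts inside the longer GENCODE gene and is the more upstream of 2 overlapping RefSeq entries with the same matches. The Fcgr4 promoter (chr1:171018676-171018975, plus strand) held 1 PU.1 match, and the Fcgr2b promoter (chr1:170976022-170976321, minus strand) held none of the 5 motifs.
Fcgr1 promoter: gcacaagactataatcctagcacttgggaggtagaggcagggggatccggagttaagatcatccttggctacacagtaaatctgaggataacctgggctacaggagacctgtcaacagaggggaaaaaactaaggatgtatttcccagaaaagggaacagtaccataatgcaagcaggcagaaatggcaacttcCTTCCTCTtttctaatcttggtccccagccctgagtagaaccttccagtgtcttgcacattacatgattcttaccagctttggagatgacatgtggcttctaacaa
Fcgr3 promoter: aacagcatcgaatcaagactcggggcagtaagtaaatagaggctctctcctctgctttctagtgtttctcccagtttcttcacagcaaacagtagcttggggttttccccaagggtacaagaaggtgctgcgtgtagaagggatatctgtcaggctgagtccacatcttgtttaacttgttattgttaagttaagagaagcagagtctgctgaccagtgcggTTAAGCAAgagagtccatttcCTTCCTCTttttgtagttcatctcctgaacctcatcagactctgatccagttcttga
Fcgr4 promoter: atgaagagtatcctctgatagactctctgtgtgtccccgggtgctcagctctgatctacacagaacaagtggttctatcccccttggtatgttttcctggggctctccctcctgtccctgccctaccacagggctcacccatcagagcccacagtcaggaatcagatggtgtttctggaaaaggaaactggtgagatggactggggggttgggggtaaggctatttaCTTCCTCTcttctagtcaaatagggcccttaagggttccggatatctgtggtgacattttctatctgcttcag
Fcgr2b promoter: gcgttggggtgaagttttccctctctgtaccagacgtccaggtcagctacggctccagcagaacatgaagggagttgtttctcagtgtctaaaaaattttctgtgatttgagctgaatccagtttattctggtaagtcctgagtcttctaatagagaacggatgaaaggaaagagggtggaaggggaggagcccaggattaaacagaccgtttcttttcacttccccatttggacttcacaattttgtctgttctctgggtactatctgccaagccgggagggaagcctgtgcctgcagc

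Counting both Fcgr3 entries, 4 of the 10 promoter entries of the 7 genes held the PU.1 letters, against 4.55% of all 32815 promoters. The T-box letters were in 0 of the 10 and in 3.02% of all promoters, and the RORE letters were in 0 of the 10 and in 2.61%. C/EBP letters were in 3 of the 10 and in 10.8% of all promoters. Runx letters were in 0 of the 10 and in 5.27%. A match is a run of letters and not a measured binding site.

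The cDC1 and cDC2 libraries of spleen matched their labels by marker genes. The summed level of Xcr1, Clec9a, Cadm1 and Batf3 was 1800 to 1919 CPM in spleen cDC1s and 65.2 to 161.5 CPM in spleen cDC2s, where CPM is the counts-per-million value, a count scaled to the size of its library after TMM, edgeR's correction for composition. In MLN this sum was 778 to 1747 CPM in cDC1s, 100.1 to 178.3 CPM in T-bet+ and 92.1 to 155.0 CPM in T-bet- cDC2s. The 4 cDC markers Zbtb46, Flt3, Itgax and H2-Ab1 summed to 8583 to 20246 CPM in MLN libraries and to 19979 to 35766 CPM in spleen libraries. The part of this in the differences between tissues was not tested. RNA libraries held 20993220 to 29006549 reads on genes and ATAC libraries 7270164 to 10081555 reads in windows. Spleen libraries differed in how their gene levels followed the GC content of transcripts, measured in the most GC-rich 100 bases of each. The rank correlation over 7584 genes was -0.46 and -0.31 in T-bet- replicates 1 and 2 and -0.30 in cDC1 replicate 3, and 0.19 to 0.32 in the other 6, which include all 3 T-bet+ libraries. This division of the spleen libraries is called GC class here. MLN libraries differed as well, over 7714 genes. The correlation there was -0.31 and 0.22 in T-bet- replicates 1 and 2 and -0.06 and -0.22 in the T-bet+ libraries. In MLN cDC1s it was -0.03, 0.20 and 0.25.

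In spleen the low and medium affinity IgG receptor genes Fcgr2b and Fcgr3, the CD64 gene Fcgr1 and the neonatal receptor gene Fcgrt were lower in T-bet+ cDC2s than in their T-bet- counterparts, while the common gamma chain gene Fcer1g was abundant in both. Of the 7 genes, 4 passed the test (edgeR's quasi-likelihood test, Benjamini-Hochberg adjusted p under 0.05 over 14377 genes), all as lower in T-bet+ cDC2s. Among all genes tested, 5.44% passed, 3.46% as lower. Libraries of the 2 subsets did not overlap for 6 of the 7 genes, against 27% of all genes. Fcgr1, Fcgr2b and Fcgr3 are also among the genes the study chose from these same libraries to mark T-bet- cDC2s, so their direction here is not independent evidence. In sorted populations measured in bulk, fewer cells that express a gene and less RNA per cell cannot be told apart.

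**Figure D1:**
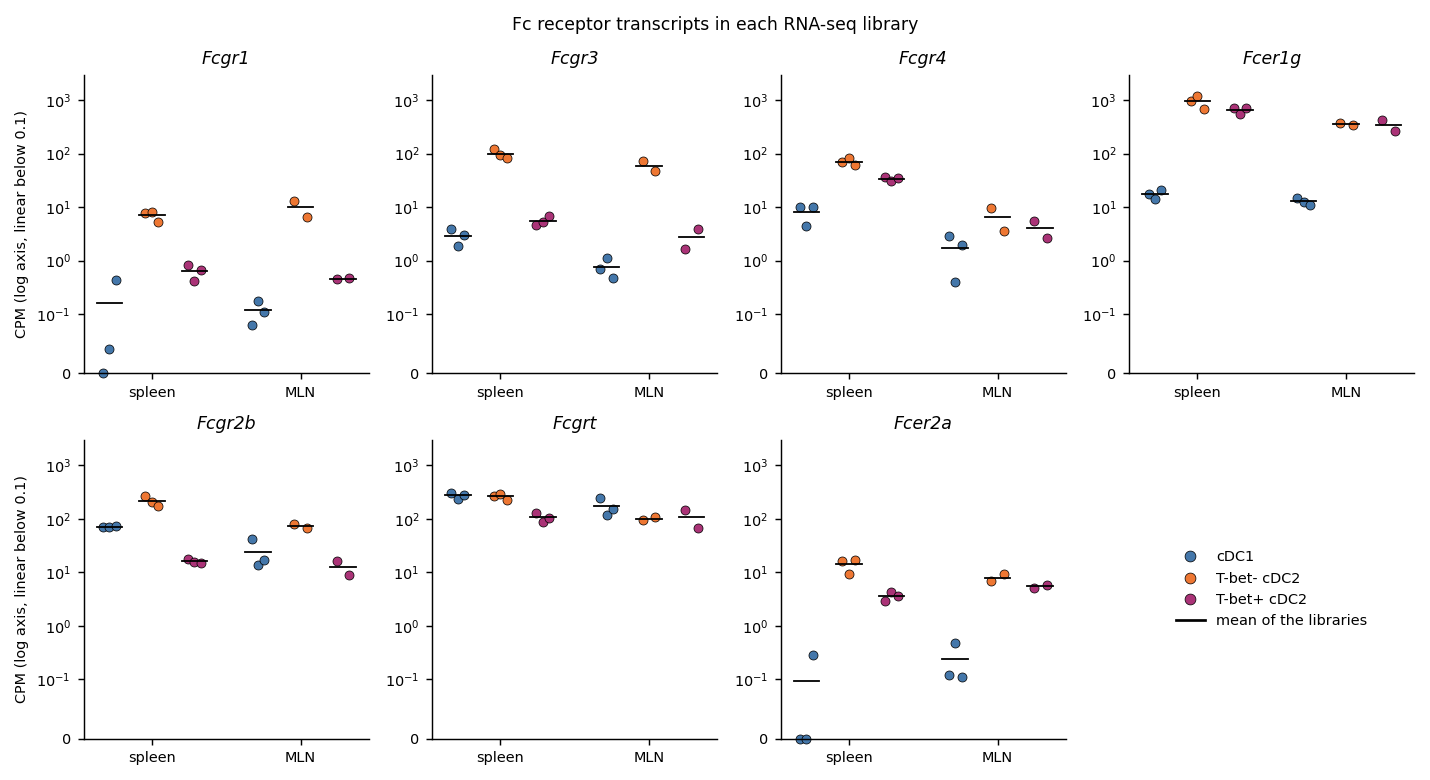
RNA level of each Fc receptor gene in every library, in CPM on an axis that is logarithmic above 0.1 and linear below it, with one panel per gene. Each point is a library, coloured by subset and grouped by tissue, and lines mark the mean of the libraries. Fcgr1, Fcgr2b and Fcgr3 were higher in every T-bet- library than in every T-bet+ library of the same tissue, and Fcer1g was low only in the cDC1 libraries, at 20.6 CPM or less.

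Fcgr3 encodes FcγRIII (CD16), an activating receptor for IgG in immune complexes. Its level was 121, 93.4 and 82.5 CPM in the T-bet- libraries of spleen and 4.63, 5.36 and 6.76 CPM in the T-bet+ libraries. All T-bet- libraries were over 10 times higher than any T-bet+ library. The fitted difference was -4.14 on the log2 scale (SE 0.34, edgeR adjusted p = 0.000235), a 17.7-fold lower level in T-bet+ cDC2s.

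Fcgr2b, the inhibitory receptor gene, was at 268.7, 209.7 and 175 CPM in T-bet- cDC2s and at 17.7, 15.9 and 14.6 CPM in T-bet+ cDC2s of spleen. The groups were again far apart, and the fitted difference was -3.76 (SE 0.22, edgeR adjusted p = 4.55e-05), or 13.5-fold. The activating Fcgr3 and the inhibitory Fcgr2b were thus both lower in T-bet+ cDC2s.

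Fcgr1, which encodes the high-affinity IgG receptor FcγRI (CD64), was at 7.85, 7.91 and 5.36 CPM in T-bet- cDC2s and at 0.831, 0.412 and 0.664 CPM in T-bet+ cDC2s. The groups did not overlap, and the fitted difference was -3.46 (SE 0.84, edgeR adjusted p = 0.0464). The call was near the threshold. It was lost without any one of T-bet- replicates 1 and 2, T-bet+ replicates 1, 2 and 3 or cDC1 replicate 2 (edgeR adjusted p between 0.0526 and 0.177) and with GC class as a term (-2.51, edgeR adjusted p = 0.0813).

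Fcgr4 encodes FcγRIV, an activating receptor for IgG2a and IgG2b. It was at 68.5, 83.1 and 61.1 CPM in T-bet- cDC2s and at 36.3, 30.2 and 35.3 CPM in T-bet+ cDC2s of spleen. The groups did not overlap, but the difference of -1.06 (SE 0.31, edgeR adjusted p = 0.0925) did not pass the test. It passed in 4 of 18 alternatives, among them DESeq2 (adjusted p = 0.0311) and a fit without cDC1 replicate 2 (edgeR adjusted p = 0.0230).

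Fcer1g was at 967, 1195 and 692 CPM in T-bet- cDC2s and at 709, 554 and 711 CPM in T-bet+ cDC2s. T-bet- replicate 3 lay among the T-bet+ libraries. The difference was -0.53 (SE 0.23, edgeR adjusted p = 0.267), and without that library it was -0.80 (edgeR adjusted p = 0.0404). With GC class as a term it was -0.16 (edgeR adjusted p = 0.853).

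Fcgrt was at 273, 297 and 228 CPM in T-bet- cDC2s and at 129, 88.9 and 103 CPM in T-bet+ cDC2s. No T-bet+ library reached the lowest T-bet- library, and the difference was -1.31 (SE 0.21, edgeR adjusted p = 0.00702), or 2.48-fold. Fcer2a was at 16.1, 9.19 and 17.2 CPM in T-bet- and at 2.85, 4.27 and 3.61 CPM in T-bet+ cDC2s. These groups did not overlap either, but the difference of -1.98 (SE 0.69, edgeR adjusted p = 0.156) did not pass the test. It did so in 4 of 18 alternatives, among them DESeq2 (adjusted p = 0.00117) and a fit without cDC1 replicate 3 (edgeR adjusted p = 0.0208).

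**Figure D2:**
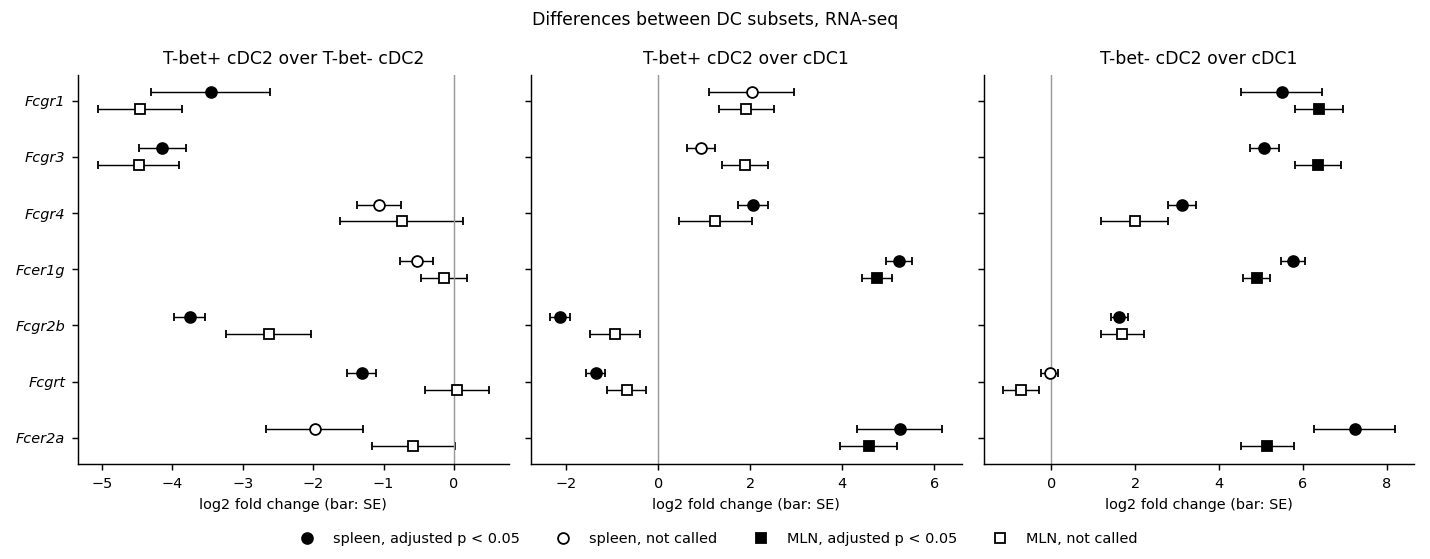
Fitted log2 fold changes of the 7 Fc receptor genes in each subset comparison, spleen and MLN, as points with bars of 1 standard error and filled where the adjusted p was under 0.05. Fcgr2b and Fcgr3 differed by -3.76 and -4.14 between T-bet+ and T-bet- cDC2s of spleen, and Fcer1g and Fcer2a were higher in both cDC2 subsets than in cDC1s in either tissue.

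With GC class as a term, Fcgr2b (-3.56, edgeR adjusted p = 3.02e-05), Fcgr3 (-3.97, edgeR adjusted p = 0.000154) and Fcgrt (-1.19, edgeR adjusted p = 0.0196) kept their calls. T-bet- replicate 3, the single T-bet- library in the GC class of the T-bet+ libraries, was above all 3 of them for Fcgr1, Fcgr2b, Fcgr3, Fcgr4, Fcgrt and Fcer2a. Fcgr2b, Fcgr3 and Fcgrt were called in all 18 alternatives, with an edgeR or DESeq2 adjusted p of at most 0.00123, 0.00360 and 0.0437.

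Some genes used as markers of other cell types also differed between the spleen cDC2 subsets. The summed level of 12 markers of monocytes and macrophages was 3114 to 4577 CPM in T-bet- and 667 to 813 CPM in T-bet+ cDC2s of spleen, with none of the 12 at 0, and 6 of 12 were called lower in T-bet+ cDC2s. Those were Csf1r, Spic, Vcam1, C1qa, C1qb and C1qc, whereas the macrophage marker Adgre1 differed by -0.18 (edgeR adjusted p = 0.753). Csf1r alone accounted for 1878 to 3045 CPM in T-bet- cDC2s. The study found higher Csf1r RNA in T-bet- cDC2s, with CSF1R protein on only a small part of them. It counts T-bet- cDC2s as cDCs because their Zbtb46 level was similar to that of T-bet+ cDC2s. Of the 4 cDC markers, 0 were called here between the spleen cDC2 subsets, with Zbtb46 at 1.41 (edgeR adjusted p = 0.310). The part of monocytes and macrophages in the Fc receptor differences was not tested. Of 4 cDC1 markers, 2 were called lower in T-bet+ cDC2s, Clec9a (-5.55, edgeR adjusted p = 0.00255) and Cadm1 (-3.00, edgeR adjusted p = 0.0308), at means of 0.128 and 2.50 CPM against 6.36 and 20.06 CPM in T-bet- cDC2s and 180.4 and 610.3 CPM in cDC1s. Xcr1 (-0.71, edgeR adjusted p = 0.196) and Batf3 (0.97, edgeR adjusted p = 0.206) were not called. The 4 cDC1 markers summed to 92.3 to 161.5 CPM in T-bet+ and to 65.2 to 134.4 CPM in T-bet- cDC2s of spleen. Fcgr2b and Fcgrt were higher in cDC1s than in T-bet+ cDC2s, and the part of cDC1s in their differences was not tested either.

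Fcgr2b and Fcer2a are also expressed by B cells. The 9 B cell markers summed to 688 to 783 CPM in T-bet- cDC2s, 806 to 922 CPM in T-bet+ cDC2s and 589.8 to 702 CPM in cDC1s of spleen, mostly from Ighm, at 485 to 589 CPM in every spleen library. Of the 6 tested, Cd79b was called lower in T-bet+ cDC2s (-1.85, edgeR adjusted p = 0.0130), while Ms4a1 (2.55, edgeR adjusted p = 0.00864) and Cd22 (1.23, edgeR adjusted p = 0.0235) were called higher. The regulator gene Pax5 was at 0 to 0.0514 CPM. The part of B cells was not tested. Among the remaining lists, the plasma cell marker Prdm1 was called lower and the cDC2 marker Esam higher. The NK cell markers, 6 genes, summed to 0.607 to 2.61 CPM.

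Against cDC1s, the cDC2s of spleen carried far more Fcer1g and Fcer2a, and T-bet- cDC2s had more of 6 of the 7 genes. The comparisons with cDC1s share their cDC1 libraries with each other and their cDC2 libraries with the comparison above, so each is given by its own values. For T-bet- cDC2s 6 of 7 genes were called, all higher, where 15.8% of all genes were called and 9.63% as higher. For T-bet+ cDC2s 3 genes were called higher and 2 lower, where 18.1% of all genes were called, 9.87% as higher and 8.19% as lower.

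Fcer1g, the signaling adaptor, was at 17.5, 14.4 and 20.6 CPM in spleen cDC1s, far below every cDC2 library. It was higher by 5.76 in T-bet- cDC2s (SE 0.29, edgeR adjusted p = 3.61e-06) and by 5.23 in T-bet+ cDC2s (SE 0.28, edgeR adjusted p = 3.78e-06). Fcer2a had 0, 0 and 6 reads in the 3 spleen cDC1 libraries. It was called higher in both cDC2 subsets (edgeR adjusted p = 0.000845 for T-bet- and 0.00359 for T-bet+), but the fitted differences of 7.23 and 5.25 rest on those few cDC1 reads.

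Fcgr2b was at 70.2, 68.9 and 73.3 CPM in spleen cDC1s, between the cDC2 subsets and without overlap with either. T-bet+ cDC2s were lower than cDC1s by -2.13 (SE 0.21, edgeR adjusted p = 0.000116) and T-bet- cDC2s higher by 1.62 (SE 0.20, edgeR adjusted p = 0.000601). The order of Fcgr2b levels in spleen was therefore T-bet- cDC2, cDC1 and T-bet+ cDC2, with each step past the test.

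Fcgr3 was at 3.85, 1.89 and 3.05 CPM in cDC1s, below all T-bet+ libraries but close to them. T-bet- cDC2s were higher by 5.08 (SE 0.35, edgeR adjusted p = 1.47e-05), while the difference of T-bet+ cDC2s from cDC1s, 0.93 (SE 0.31, edgeR adjusted p = 0.0648), did not pass. Fcgr4 was at 9.96, 4.48 and 10.1 CPM in cDC1s, and both cDC2 subsets were above it, by 3.12 for T-bet- (SE 0.34, edgeR adjusted p = 0.000229) and by 2.05 for T-bet+ (SE 0.32, edgeR adjusted p = 0.00201).

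Fcgr1 had 0, 1 and 9 reads in the 3 spleen cDC1 libraries. T-bet- cDC2s were called higher (edgeR adjusted p = 0.00425), with a fitted difference of 5.49 that rests on these reads. For T-bet+ cDC2s, whose lowest library overlapped the highest cDC1 library, it was 2.04 (edgeR adjusted p = 0.173). The cDC1 library with 9 of these 10 reads, replicate 3, also held all 6 Fcer2a reads of the cDC1 group and is the cDC1 library of the other GC class. Without it the T-bet+ difference for Fcgr1 passed the test (edgeR adjusted p = 0.00659, with a range of 0.00659 to 0.412 over the alternatives).

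Fcgrt, whose product carries IgG through the cell, was not lower in cDC1s. Its level was 311, 236 and 274 CPM in spleen cDC1s and overlapped with T-bet- cDC2s, from which it differed by -0.04 (SE 0.20, edgeR adjusted p = 0.921). T-bet+ cDC2s were lower than cDC1s by -1.35 (SE 0.21, edgeR adjusted p = 0.00161), so that T-bet+ cDC2s had the lowest Fcgrt level of the 3 subsets of spleen.

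Levels of different genes were set side by side after division by exon length (CPM per kilobase). This length joins all annotated exons of a gene, 5790 bases for Fcgr2b and 1256 to 2589 bases for the activating genes. It need not be the length of the transcript that was expressed, and the order of genes depends on it. On this scale Fcer1g was highest in T-bet- cDC2s of spleen, with a mean of 1088 ± 288 (SD, n = 3), followed by Fcgrt at 126 ± 16.5, Fcgr3 at 57.0 ± 11.5, Fcgr4 at 56.5 ± 8.95 and Fcgr2b at 37.6 ± 8.17. Fcgr3 and Fcgr4 did not differ beyond their spread, and Fcer2a (4.58 ± 1.40) and Fcgr1 (2.72 ± 0.562) were lowest. In T-bet+ cDC2s the adaptor stood at 753 ± 104 and Fcgrt at 50.9 ± 9.58, and among the IgG receptor genes Fcgr4, at 27.0 ± 2.62, was above Fcgr3 at 3.22 ± 0.624, Fcgr2b at 2.78 ± 0.268 and Fcgr1 at 0.246 ± 0.0815. Fcgr3 and Fcgr2b did not differ beyond their spread there. In cDC1s the order was different, with Fcgrt at 130.2 ± 17.7 above Fcer1g at 20.05 ± 3.52 and Fcgr2b, at 12.2 ± 0.390, above the activating receptor genes.

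The sum of the activating genes Fcgr1, Fcgr3 and Fcgr4 over the inhibitory Fcgr2b, per kilobase, describes their balance in RNA. This ratio was chosen after earlier results of these data were known and is given without a test. It was 0.837, 0.393 and 0.787 in cDC1s of spleen, 2.74, 3.40 and 3.25 in T-bet- cDC2s and 10.4, 9.91 and 12.7 in T-bet+ cDC2s. The ranges did not overlap, and the ratio was highest in the subset in which both kinds of receptor gene were low among cDC2s. The size of the ratio rests on the division by length. In plain CPM the means in T-bet- cDC2s of spleen were 218 for Fcgr2b, 7.04 for Fcgr1, 99.0 for Fcgr3 and 70.9 for Fcgr4. Fcgr4 made up 87.1 to 90.6% of the activating sum in T-bet+ cDC2s and 42.8 to 53.8% in T-bet- cDC2s, where Fcgr3 made up 43.7 to 54.8%. In MLN the ratio was 0.383 to 0.636 in cDC1s, 2.75 and 3.86 in T-bet- cDC2s and 2.01 and 2.95 in T-bet+ cDC2s, so that the cDC2 subsets overlapped there.

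**Figure D3:**
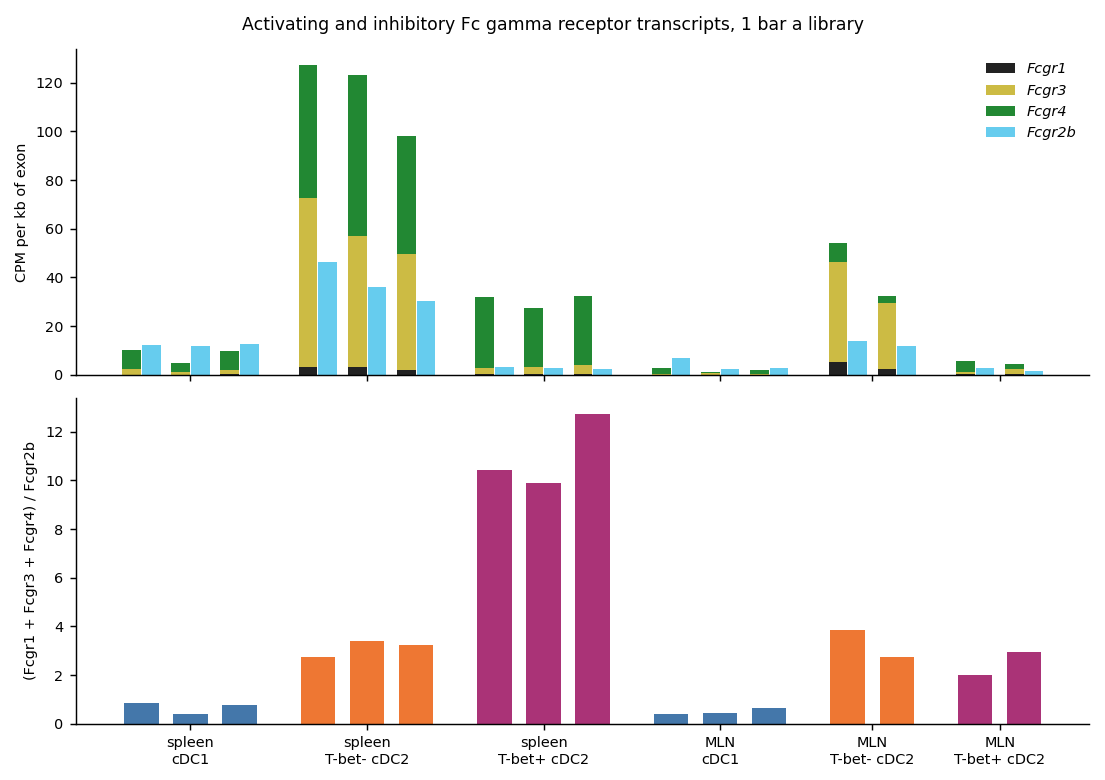
Bars for each library, grouped by tissue and subset, on linear axes from 0. The upper panel stacks Fcgr1, Fcgr3 and Fcgr4 beside Fcgr2b in CPM per kilobase of exon, and the lower panel gives the ratio of that sum to Fcgr2b, which was 9.91 to 12.7 in the T-bet+ cDC2 libraries of spleen and at most 3.86 in the libraries of every other group.

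In MLN the same 3 IgG receptor genes had the largest differences between cDC2 subsets, but with 2 libraries a subset none passed the test (edgeR, 0 of 7 genes and 0% of 15298 genes). At an unadjusted p under 0.05 there were 3 of the 7 genes, against 9.22% of all genes, and DESeq2 called the 3 named next. The 2 subsets did not overlap for 4 of the 7 genes, against 40.8% of all genes.

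Fcgr3 was at 71.7 and 47.2 CPM in T-bet- and at 1.66 and 3.82 CPM in T-bet+ cDC2s of MLN, with a fitted difference of -4.48 (SE 0.58, edgeR adjusted p = 0.104). Fcgr1 was at 13.2 and 6.39 CPM in T-bet- and at 0.451 and 0.462 CPM in T-bet+ cDC2s, a difference of -4.46 (SE 0.60, edgeR adjusted p = 0.104). Fcgr2b was at 81.0 and 68.6 CPM in T-bet- and at 16.03 and 8.75 CPM in T-bet+ cDC2s, a difference of -2.63 (SE 0.61, edgeR adjusted p = 0.286). For these genes the lowest T-bet- library was over 4 times the highest T-bet+ library.

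The other 4 genes were closer in MLN. Fcgr4 was at 9.55 and 3.63 CPM in T-bet- and at 5.57 and 2.62 CPM in T-bet+ cDC2s, and Fcer1g at 379 and 347 CPM and at 416 and 259 CPM. Fcgrt was at 93.4 and 108 CPM in T-bet- and at 145 and 67.7 CPM in T-bet+ cDC2s. All 3 overlapped between subsets, with differences of -0.74, -0.14 and 0.04. Fcer2a, at 6.79 and 9.22 CPM in T-bet- and at 5.15 and 5.78 CPM in T-bet+ cDC2s, differed by -0.58 (SE 0.59, edgeR adjusted p = 0.838). Monocyte and macrophage markers summed to 2385 to 3778 CPM in T-bet- and 479 to 604 CPM in T-bet+ cDC2s of MLN, and 0 of the 11 tested were called (11 of 12 were tested). Their part was not tested.

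Against MLN cDC1s, T-bet+ cDC2s had 2 genes called higher, Fcer1g by 4.75 (SE 0.32, edgeR adjusted p = 0.000557) and Fcer2a by 4.57 (edgeR adjusted p = 0.00730), where 5.96% of all genes were called, 3.94% as higher. T-bet- cDC2s had 4 genes called higher, where 5.6% of all genes were called, 4.22% as higher. These were Fcer1g by 4.90 (SE 0.32, edgeR adjusted p = 0.000636), Fcgr3 by 6.36 (SE 0.54, edgeR adjusted p = 0.00115), Fcgr1 (edgeR adjusted p = 0.00147) and Fcer2a (edgeR adjusted p = 0.00486). Fcgr1 had 2, 4 and 3 reads and Fcer2a 3, 11 and 3 reads in the MLN cDC1 libraries, so the fitted differences of these 2 genes rest on few reads.

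Whether the subset difference itself changed with tissue was tested in one fit of all 16 RNA libraries. None of the 7 genes passed (edgeR), where 1 of 16795 genes did, or 0.00595%. At an unadjusted p under 0.05 there was 1 of the 7, Fcgrt, against 4.96% of all genes. Its difference between T-bet+ and T-bet- cDC2s was lower in spleen than in MLN by -1.39 (SE 0.48, edgeR adjusted p = 0.952).

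Between tissues, Fcgr4 was higher in spleen than in MLN in all 3 subsets. Spleen and MLN libraries may come from separate preparations, which cannot be told apart from tissue. In T-bet- cDC2s the Fcgr4 level was 61.1 to 83.1 CPM in spleen against 3.63 and 9.55 CPM in MLN, a difference of 3.42 (SE 0.68, edgeR adjusted p = 0.0115). In T-bet+ cDC2s it was 30.2 to 36.3 CPM against 2.62 and 5.57 CPM, a difference of 3.05 (SE 0.67, edgeR adjusted p = 0.0231). In cDC1s it was 4.48 to 10.1 CPM against 0.390 to 2.88 CPM, a difference of 2.23 (SE 0.57, edgeR adjusted p = 0.0242). The tissues did not overlap for Fcgr4 in any subset.

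Among the 7 genes, Fcgr4 was the single one called between tissues in T-bet+ cDC2s, where 5% of all genes were called and 1.27% as higher. That call was lost without any one of T-bet+ spleen replicates 1, 2 and 3 or T-bet+ MLN replicate 2. In cDC1s 3 of the 7 genes were called higher, where 11.5% of all genes were called and 3.86% as higher: Fcgr4, Fcgr2b by 1.57 (SE 0.36, edgeR adjusted p = 0.0154) and Fcgr3 by 1.94 (SE 0.41, edgeR adjusted p = 0.0104). The count fell to 1 without spleen cDC1 replicate 1 or MLN cDC1 replicate 2, and to 0 without MLN cDC1 replicate 3.

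In T-bet- cDC2s 4 genes were called higher in spleen, where 5.81% of all genes were called and 1.57% as higher. Besides Fcgr4 they were Fcgr2b by 1.54 (SE 0.41, edgeR adjusted p = 0.0433), Fcer1g by 1.39 (SE 0.29, edgeR adjusted p = 0.0138) and Fcgrt by 1.40 (SE 0.35, edgeR adjusted p = 0.0336). The Fcgr2b call was lost in 10 of 22 alternatives, among them leaving out spleen cDC1 replicate 1 or 2 or any one spleen T-bet+ library, with an edgeR adjusted p of up to 0.240 over the alternatives. The count fell to 2 without spleen T-bet- replicate 1, to 1 without spleen T-bet- replicate 2 or MLN T-bet- replicate 1 and to 0 without MLN T-bet- replicate 2. Fcgr1 and Fcer2a did not pass in any subset, with differences of -0.48 and 0.82 in T-bet- cDC2s.

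Other genes of the Fc receptor pathway were read from 4 lists. Of 13 further Fc receptor and Fc-binding genes, 7 were tested in spleen and 0 were called between the cDC2 subsets (edgeR), where 5.44% of all genes were called. The median difference of the 7 was -0.31, against -0.01 over all genes. B2m, the light chain that pairs with the neonatal receptor, was at a mean of 3896 CPM in T-bet+ and 5462 CPM in T-bet- cDC2s and did not pass (-0.49, edgeR adjusted p = 0.187), although it was called higher in T-bet- cDC2s than in cDC1s by 0.91 (edgeR adjusted p = 0.00836). Fcer1a and Ms4a2, the other chains of the high-affinity IgE receptor that uses Fcer1g, had 0 reads in the spleen T-bet+ cDC2 and cDC1 libraries and means of 0.0377 and 0.154 CPM in T-bet- cDC2s. B2m, Fcer1a and Ms4a2 were named after their values were seen.

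Of 28 ITAM adaptor and kinase genes, all 28 were tested and 0 were called between the spleen cDC2 subsets (edgeR), where 5.44% of all genes were called. The median difference of the 28 was -0.07. Against cDC1s 8 of these rose and 2 fell in T-bet+ cDC2s, and 9 rose and 1 fell in T-bet- cDC2s, where 18.1% and 15.8% of all genes were called. The kinase genes Syk and Fgr, named here after their values were seen, were higher in T-bet- cDC2s than in cDC1s, by 2.01 (edgeR adjusted p = 0.000990) and 3.74 (edgeR adjusted p = 4.55e-06).

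Of 10 genes of inhibitory ITIM signaling, 2 were called between the spleen cDC2 subsets, both lower in T-bet+ cDC2s, where 5.44% of all genes were called and 3.46% as lower. Dok3, an adaptor of inhibitory signaling, was at a mean of 5.10 CPM in T-bet+ and 25.3 CPM in T-bet- cDC2s (-2.31, SE 0.43, edgeR adjusted p = 0.0157), and the related Dok2 at 0.351 and 6.42 CPM (-4.17, SE 1.00, edgeR adjusted p = 0.0436). The other 8 did not pass, and the list's median difference was -0.05.

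Of 15 genes of the phagocytic oxidase and actin machinery, 3 fell and 1 rose in T-bet+ cDC2s, with a median difference of -0.18, where again 5.44% of all genes were called. Those that fell included Axl (-3.79, SE 0.40, edgeR adjusted p = 0.000835) and Mertk (-4.71, SE 1.06, edgeR adjusted p = 0.0336), receptors for apoptotic cells. The small GTPase gene Rac2 rose (0.87, SE 0.20, edgeR adjusted p = 0.0400). In MLN 0 genes of any of the 4 lists were called between the cDC2 subsets (edgeR), where 0% of all genes were called.

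The genes whose pattern over the 16 RNA libraries was most like each Fc receptor gene were found by Pearson's correlation of log2 CPM among 8098 genes. The libraries share subsets, tissues and depth, and r is a description. Fcgr1 was most like Cx3cr1 (0.965), Nr1h3 (0.964) and Pld3 (0.945). Fcgr3 was most like Spic (0.972), Ms4a7 (0.955) and Sepp1 (0.951), and Fcgr2b like Sfxn3 (0.945), Sgk1 (0.940) and Dusp3 (0.922). Fcgr4 was most like Cd68 (0.962), Icam2 (0.956) and Matk (0.952). Fcer1g was most like S100a4 (0.994), Klra17 (0.992) and Sirpb1a (0.991), Fcgrt like Slamf8 (0.954), Tmed9 (0.932) and Tmed10 (0.928) and Fcer2a like Apobec1 (0.982), Zeb2 (0.982) and Cybb (0.978). Among the Fc receptor genes themselves, Fcer1g and Fcer2a (0.928) and Fcgr1 and Fcgr3 (0.919) were closest.

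The 42 ATAC windows, each of 150 bases around a peak summit, were distributed over all 7 genes, with 9 each at Fcgr3 and Fcgr4, 8 at Fcgr1, 7 at Fcgr2b, 5 at Fcgrt and 2 each at Fcer1g and Fcer2a. Between T-bet+ and T-bet- cDC2s of spleen, 1 of the 42 was called (edgeR adjusted p under 0.01 and an absolute log2 difference over 0.5), as lower in T-bet+ cDC2s. Among 166547 windows tested 6.29% were called, 2.36% as lower. The median difference of the 42 windows was -0.12, against -0.01 over all windows. The count of 1 was at the share of all windows called lower.

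Against cDC1s, 10 of the 42 windows were called in T-bet+ cDC2s, 8 higher and 2 lower, where 23% of all windows were called, 11% as higher and 12% as lower. Both lower ones were in the upstream peak of Fcgr1. In T-bet- cDC2s 4 of the 42 were called, 3 higher and 1 lower, where 17.9% of all windows were called, 7.34% as higher and 10.5% as lower. The first count was close to the share of all windows and the second below it. Without cDC1 replicate 2 the counts were 2 and 1, and without cDC1 replicate 1 the first was 5.

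The called window lay 6907 bases upstream of Fcgr1 at chr3:96300876-96301025 (GRCm38), in an intergenic peak, and the next annotated gene, Gm42743, was 21875 bases away. Its sequence is shown because, of the 42 windows, it alone was called between the cDC2 subsets, and Fcgr1 RNA was called as well. It is followed by 2 windows that differed between cDC2s and cDC1s, one 5154 bases beyond the end of Fcgr2b (chr1:170953314-170953463) and one in an intron of Fcgr4 (chr1:171027564-171027713). All 3 are read from the plus strand of GRCm38, and capitals mark a motif match as above.
Fcgr1 upstream window: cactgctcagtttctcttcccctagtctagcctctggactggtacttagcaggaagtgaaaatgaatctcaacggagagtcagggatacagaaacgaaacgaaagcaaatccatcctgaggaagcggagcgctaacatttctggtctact
Fcgr2b downstream window: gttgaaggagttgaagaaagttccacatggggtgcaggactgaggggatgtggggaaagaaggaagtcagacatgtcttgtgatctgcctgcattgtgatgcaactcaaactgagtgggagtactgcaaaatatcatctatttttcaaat
Fcgr4 intron window: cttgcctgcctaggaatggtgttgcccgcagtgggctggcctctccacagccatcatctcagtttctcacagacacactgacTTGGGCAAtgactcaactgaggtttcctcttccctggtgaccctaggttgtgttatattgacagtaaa

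The Fcgr1 and Fcgr2b windows held none of the 5 motifs, and the Fcgr4 window held 1 C/EBP match. Over the 42 windows, C/EBP letters were in 4, against 5.89% of all 177956 windows. PU.1 letters were in 2, against 5.89%, RORE letters in 2, against 1.57%, Runx letters in 1, against 5.23%, and T-box letters in 0, against 1.92%.

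At the Fcgr1 upstream window the accessibility was 21.9 and 27.2 CPM in T-bet- cDC2s, 12.9 and 10.9 CPM in T-bet+ cDC2s and 20.6 and 22.3 CPM in cDC1s. T-bet+ cDC2s were below both other subsets, and T-bet- cDC2s overlapped with cDC1s. The difference between T-bet+ and T-bet- cDC2s was -1.05 (SE 0.20, edgeR adjusted p = 0.000112) and that between T-bet+ cDC2s and cDC1s -0.85 (SE 0.21, edgeR adjusted p = 0.000625). T-bet- cDC2s and cDC1s differed by 0.19 (SE 0.20, edgeR adjusted p = 0.519), although Fcgr1 RNA had 10 reads in all in cDC1s of spleen. Without T-bet- replicate 2 the T-bet+ to T-bet- difference was -0.88 (edgeR adjusted p = 0.0181) and no longer called. The other 3 windows of the same peak had differences of -1.03, -1.21 and -1.11 between the cDC2 subsets and were not called. Counted over the whole peak of 1315 bases (chr3:96300497-96301811), the difference was -1.02 (edgeR adjusted p = 5.02e-07).

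At the start of Fcgr1 none of 4 windows was called, where 6.29% of all windows were called between the cDC2 subsets. The window centred 416 bases inside the gene was at 1.40 and 0.622 CPM in T-bet+ and at 2.32 and 1.80 CPM in T-bet- cDC2s (-1.02, edgeR adjusted p = 0.209). That centred 702 bases inside was at 0.863 and 1.14 CPM and at 1.34 and 2.41 CPM (-0.92, edgeR adjusted p = 0.272). The window over the start, chr3:96293959-96294108, which covers the PU.1 match of the promoter above, was at 7.21 and 4.51 CPM in T-bet- cDC2s and at 6.58 and 4.25 CPM in T-bet+ cDC2s. The subsets overlapped, with a difference of -0.10 (SE 0.31, edgeR adjusted p = 0.890).

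**Figure D4:**
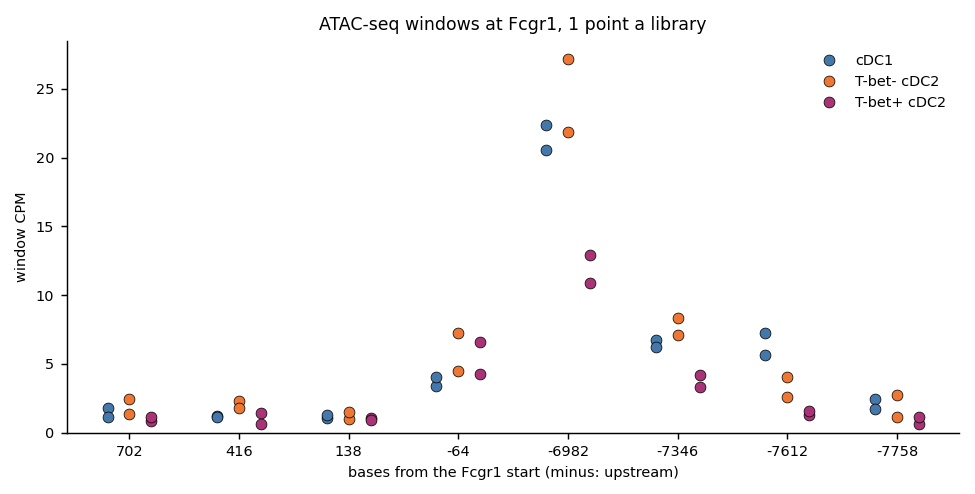
Accessibility of the 8 windows at Fcgr1 in CPM, with a point for each of the 6 ATAC libraries coloured by subset. The windows stand in order along the gene and are marked with the distance of their centre from its start in bases. In the most accessible window, upstream of the gene, both T-bet+ cDC2 libraries (12.9 and 10.9 CPM) lie below the other 4 (20.6 to 27.2 CPM). In the window over the start the cDC2 subsets overlap.

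At Fcgr2b no window was called between the cDC2 subsets, where 6.29% of all windows were called. The window nearest its start, chr1:170976026-170976175, differed by 0.47 (SE 0.26, edgeR adjusted p = 0.263), opposite in sign to the RNA. The downstream window shown above was at 4.64 and 6.12 CPM in T-bet- cDC2s, 4.64 and 1.14 CPM in T-bet+ cDC2s and 0.823 and 0.904 CPM in cDC1s. All cDC2 libraries were above cDC1s, by 2.63 for T-bet- (SE 0.48, edgeR adjusted p = 9.50e-06) and by 1.72 for T-bet+ (SE 0.51, edgeR adjusted p = 0.00596). The T-bet+ call rested on T-bet+ replicate 1, and without it the difference was 0.40 (edgeR adjusted p = 0.730). An intron window of Fcgr2b, chr1:170973114-170973263, was more accessible in T-bet+ cDC2s than in cDC1s by 1.02 (SE 0.29, edgeR adjusted p = 0.00353), whereas Fcgr2b RNA was lower in T-bet+ cDC2s than in cDC1s. This call was lost without either cDC1 library (edgeR adjusted p = 0.0362 and 0.0252), without T-bet+ replicate 1 (0.68, edgeR adjusted p = 0.144) and with DESeq2 (adjusted p = 0.0264).

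At Fcgr4 0 of 9 windows were called between the cDC2 subsets (edgeR), where 6.29% of all windows were called. Relative to cDC1s 4 windows were called higher in T-bet+ cDC2s and 2 in the T-bet- subset, the direction of the RNA. Over all windows 11% and 7.34% were called higher in these comparisons. The intron window shown above was at 0.823 and 0.388 CPM in cDC1s, 2.70 and 2.59 CPM in T-bet+ cDC2s and 2.69 and 3.81 CPM in T-bet- cDC2s. Both cDC2 subsets were above it, by 2.08 for T-bet+ (SE 0.53, edgeR adjusted p = 0.00115) and by 2.39 for T-bet- (SE 0.52, edgeR adjusted p = 0.000180). The window 861 bases upstream of the gene, chr1:171017910-171018059, was at 5.53 and 5.30 CPM in cDC1s, 16.2 and 10.3 CPM in T-bet+ and 8.31 and 12.2 CPM in T-bet- cDC2s, with differences from cDC1s of 1.281 (SE 0.27, edgeR adjusted p = 8.63e-05) and 0.93 (SE 0.27, edgeR adjusted p = 0.00691). Both intron calls were lost without cDC1 replicate 2 (edgeR adjusted p = 0.0452 for T-bet+ and 0.0160 for T-bet-). The upstream call for T-bet+ was lost without T-bet+ replicate 1 (edgeR adjusted p = 0.0154), and that for T-bet- without either cDC1 library or T-bet- replicate 2. A neighbour at chr1:171017573-171017722 was higher in T-bet+ cDC2s than in cDC1s by 1.24 (edgeR adjusted p = 0.00895). That call was lost without either cDC1 library, without T-bet+ replicate 2 (0.99, edgeR adjusted p = 0.112) and with DESeq2 (adjusted p = 0.0603).

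At Fcgr3, the gene with the largest RNA difference between the spleen cDC2 subsets, 0 of 9 windows were called in any of the 3 comparisons (edgeR). Over all windows 6.29% were called for T-bet+ against T-bet- cDC2s. Against cDC1s 23% were called for T-bet+ and 17.9% for T-bet- cDC2s. The windows inside the gene held only 1 to 18 reads per library. The nearest to the GENCODE start, centred 1136 bases inside it, differed by 0.15 between the cDC2 subsets (edgeR adjusted p = 0.910). None of the 42 windows covered the RefSeq start of Fcgr3 whose promoter is shown above. A window centred 1364 bases inside the gene had -1.99 (SE 0.75, edgeR adjusted p = 0.0733) between the cDC2 subsets, at 0.324 and 0.415 CPM in T-bet+ and 1.96 and 1.10 CPM in T-bet- cDC2s.

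At Fcer1g, an intron window at chr1:171233475-171233624 was more accessible in T-bet+ cDC2s than in cDC1s by 1.38 (SE 0.40, edgeR adjusted p = 0.00460). The call was lost without either cDC1 library (edgeR adjusted p = 0.0389 and 0.0314), without T-bet+ replicate 2 (1.00, edgeR adjusted p = 0.115) and with DESeq2 (adjusted p = 0.0462). T-bet- cDC2s differed from cDC1s there by 1.25 (SE 0.41, edgeR adjusted p = 0.0148), short of the threshold. At Fcgrt, an intron window at chr7:45097531-45097680 was higher in T-bet+ cDC2s than in cDC1s by 1.42 (SE 0.44, edgeR adjusted p = 0.00814). This call was lost without either cDC1 library, without T-bet+ replicate 1 (0.88, edgeR adjusted p = 0.263) and with DESeq2 (adjusted p = 0.0726). A window 8352 bases upstream at chr7:45112203-45112352 was lower in T-bet- cDC2s than in cDC1s by -1.74 (SE 0.49, edgeR adjusted p = 0.00456). This call was lost without cDC1 replicate 2 (-1.18, edgeR adjusted p = 0.210), without T-bet- replicate 1 (-1.22, edgeR adjusted p = 0.117) and with DESeq2 (adjusted p = 0.0711), and the difference was -2.70 without T-bet- replicate 2. The Fcgrt start window, chr7:45103768-45103917, did not pass in any comparison and differed by -0.37 between the cDC2 subsets (SE 0.22, edgeR adjusted p = 0.309). The 2 intron windows of Fcer2a were not called, with 1.58 and 1.92 between T-bet- cDC2s and cDC1s.

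**Figure D5:**
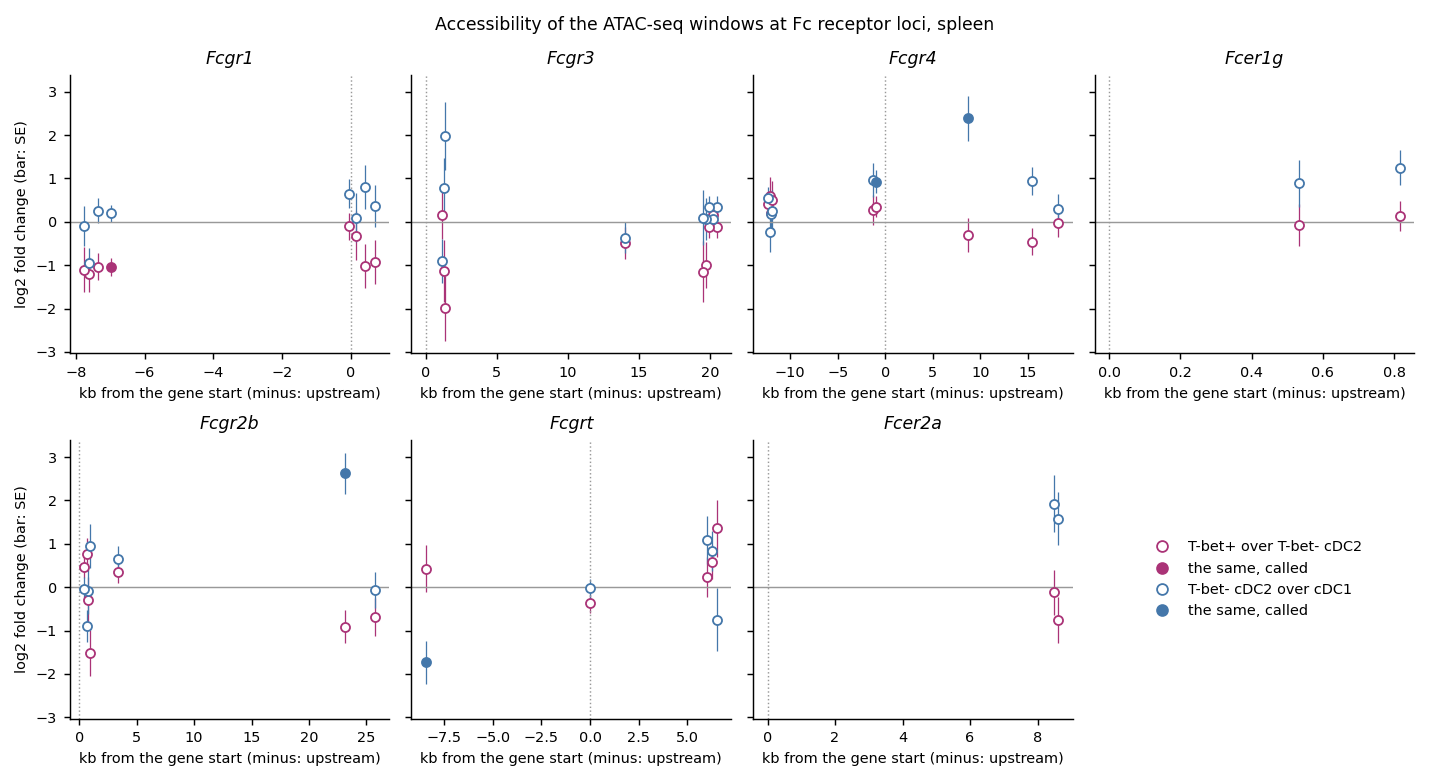
Log2 difference in accessibility for the 42 windows, in one panel per gene, against the distance of the window's centre from the gene's start in kilobases, for T-bet+ against T-bet- cDC2s and for T-bet- cDC2s against cDC1s. Bars are 1 standard error and filled points are called. For T-bet+ against T-bet- cDC2s the single filled point is the Fcgr1 upstream window at -1.05.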

How the data were processed

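RNA was measured in 16 libraries (9 spleen, 7 MLN), each from 2 pooled mice, and accessibility in 6 spleen ATAC libraries. The authors amplified RNA with a SMART-Seq kit, aligned it with HISAT2 (2.1.0) to mm10 and deposited raw read counts of uniquely aligned reads per GENCODE gene. For ATAC-seq the authors aligned with Bowtie2 (2.2.5), shifted reads for the Tn5 offset, called peaks with MACS2 (2.1.1.20160309) on all replicates together and deposited read counts in 150-base windows around summits. The deposited peak list has a score column that is 0 throughout and was not used, and the deposited summit list has a −log10 p column that was not used. Whether gene counting used strand is not given in the sources used here.

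Here counts were fitted with edgeR (4.0.16, R 4.3.3; TMM, filterByExpr with a minimum count of 10, robust quasi-likelihood test, Benjamini-Hochberg adjustment), in spleen, in MLN and in all 16 libraries for tests between tissues. RNA calls had an adjusted p under 0.05, and ATAC calls an absolute log2 difference over 0.5 with an adjusted p under 0.01. DESeq2 (1.42.0), other filters, scalings and thresholds, a replicate block, GC class as a term and leaving out each library were alternatives. The scripts were tested on simulated data. A window belonged to a gene that was the closest to its peak within 50000 bases. Depth was 20993220 to 29006549 reads per RNA library. No 2 libraries were within sampling noise of each other. Replicates are separate libraries, and p-values measure the spread between them.

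Text names all 7 genes, the called genes of each list in spleen (at most the 4 largest differences), the 3 genes most alike in pattern (Pearson, mean log2 CPM over 3) and, per gene, up to 3 called windows and the one nearest the start. Some listed items are not reported here. Members and lists were chosen with earlier results of these data known.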

Additional observations from a re-analysis of the deposited data

How the results depend on the processing

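In spleen, between 3 and 6 of the 7 genes were called for T-bet+ against T-bet- cDC2s over the 18 alternatives, 5 to 7 for T-bet+ cDC2s against cDC1s and 6 for T-bet- cDC2s against cDC1s. The MLN count for T-bet+ against T-bet- cDC2s, 0, was 3 with DESeq2, 3 with no filter on low counts, 2 with a newer quasi-dispersion estimate of edgeR (chosen after seeing the data) and 2 in one fit of all 16 libraries. With adjusted p under 0.01, the counts between tissues were 0 for cDC1s, for T-bet+ and for T-bet- cDC2s. For T-bet+ cDC2s, 2 were called with DESeq2 and 2 with the newer estimate. Leaving out 1 library gave 0 to 4 for cDC1s, 0 to 2 for T-bet+ and 0 to 4 for T-bet- cDC2s. With 2 or 3 libraries a group, each count between tissues depended on single libraries.

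The ATAC count for T-bet+ against T-bet- cDC2s, 1, was 2 with library size only, 3 with windows within 10000 bases of the genes and 0 to 2 with 1 library left out. For T-bet+ cDC2s against cDC1s, 10 windows became 3 with DESeq2, 4 with library size only, 2 with the stricter threshold and 2 to 10 with 1 library left out (2 without cDC1 replicate 2, 5 without cDC1 replicate 1). For T-bet- cDC2s against cDC1s, 4 became 2 with DESeq2, 2 with the stricter threshold and 1 to 5 with 1 library left out. The cause was not tested.

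Replicate numbers were not taken to pair the samples, since not every same-numbered pair deviated together. Over 0.1 were 3 of 9 correlations in spleen (-0.74 to 0.43), 3 of 6 in MLN (-0.14 to 0.66), 4 of 5 in MLN by the number in the library names (-0.0146 to 0.66) and 0 of 6 in ATAC. With the replicate number as a block, 3, 5 and 6 genes were called in the 3 spleen comparisons, 0, 2 and 4 in MLN, and 1, 8 and 4 ATAC windows, and Fcgr1 lost its call (-3.55, edgeR adjusted p = 0.109). With the number in the library names of MLN as the block, 3 genes were called for T-bet+ against T-bet- cDC2s and 5 for T-bet+ cDC2s against cDC1s.

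Values that changed sign were not called. Without 1 library, Fcgrt ranged from -0.16 to 0.0289 for spleen T-bet- cDC2s against cDC1s. In MLN T-bet+ against T-bet- cDC2s, Fcgrt ranged from -0.55 to 0.51 (replicate block -0.10, library-name block -0.47), Fcer1g from -0.46 to 0.18 and Fcgr4 from -1.30 to 0.17. Between tissues, Fcgrt ranged from -0.43 to 0.61 in T-bet+ cDC2s (DESeq2 -0.0488, its size factors -0.0471, no filter -0.0095), and Fcgr1 from -2.30 to 0.96 in cDC1s and from -0.93 to 0.11 in T-bet- cDC2s. The tissue by subset difference ranged from -0.21 to 1.05 for Fcgr3 and from -1.21 to 0.25 for Fcgr4.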
